A study of Mus musculus with 4 samples.

Results

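The TGF-β genes examined here are the 3 ligands *Tgfb1*, *Tgfb2* and *Tgfb3*, the 3 receptors *Tgfbr1*, *Tgfbr2* and *Tgfbr3*, and the 4 latent-binding proteins *Ltbp1*, *Ltbp2*, *Ltbp3* and *Ltbp4*. They were taken by symbol from the count tables. All 10 were among the 23284 genes counted and among the 15645 that passed the filter on low counts and were tested. RNA-Seq had been performed on Osr1+ cells from E13.5 limbs of C57BL/6J mice, sorted as live cells for GFP, which is made from the *Osr1* GCE knock-in allele. There were 2 *Osr1* GCE/+ embryos, which keep 1 intact *Osr1* copy and served as controls, and 2 *Osr1* GCE/GCE embryos, which have none. Every sample therefore carried the knock-in allele. The sort was meant to leave out cells without GFP, and no sample of such cells was included. The comparison asks which TGF-β genes differ in limb connective tissue cells without Osr1.

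TGF-β is secreted as an inactive complex. Each ligand is folded with its own propeptide, and a latent-binding protein (LTBP) ties this complex to fibrillin and fibronectin fibres until integrins or proteases release the ligand. The free ligand brings together the kinases TGFBR2 and TGFBR1, which phosphorylate SMAD2 and SMAD3, while TGFBR3 (betaglycan) has no kinase and hands ligand on, above all TGF-β2. In the limb the pathway is known for its part in connective tissue matrix, in the formation of tendon progenitors through TGF-β2 and TGF-β3, and in cartilage.

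The count tables held 52121596 to 61402140 fragments per sample. Values are given as CPM, a gene's counts scaled to a common library size after normalization between samples, and 3 counts, taken as the floor, amounted to at most 0.0574 CPM. *Osr1* itself had 81.9 and 79.1 CPM in the GCE/+ embryos, against 11.9 and 13.9 CPM in the GCE/GCE embryos (log2 fold change -2.64, SE 0.11, adjusted p = 5.94e-05 by edgeR). The 10 listed limb fibroblast markers summed to 24185 and 21841 CPM in the GCE/+ embryos, against 21193 and 18404 CPM in the GCE/GCE embryos. Their median log2 fold change was -0.14. Over the 4 samples, 6 epithelial markers summed to 13.9 to 16.5 CPM and 7 glial and neural markers to 22.3 to 32.9 CPM. Other lists had higher sums, with 95.1 to 146 CPM for endothelial, 157 to 358 for macrophage and 185 to 238 for myogenic markers. Erythroid markers summed to 158 to 463 CPM, cartilage markers to 1021 to 2293 CPM and tendon markers to 2002 to 2661 CPM. *Xist* was at 1142 CPM in GCE/GCE replicate 1 and did not exceed 2.63 CPM elsewhere, so that this embryo was the only one with the transcript of female cells. Values without it are given below where they matter. Longer transcripts had higher log2 fold changes (across genes, Spearman's rho 0.258, a description over genes of the same 4 libraries). Fits corrected for this trend are named where they changed a call.

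In the 2 GCE/+ samples, *Ltbp1* had the highest level for its length, with a mean of 57.3 CPM per kb of exon. It ranked 1017 among the 15472 tested genes with a known length. Next came *Tgfb2* (35.3 CPM per kb), *Tgfb3* (34.9), *Tgfbr1* (34.7) and *Tgfbr3* (32.6), and the samples' values of neighbours in this order overlapped. *Ltbp3* (29.0), *Tgfbr2* (25.1) and *Ltbp4* (21.9) followed, each with both values below those of the gene before it. *Tgfb1* was far lower, at 4.27 CPM per kb, and *Ltbp2* was the lowest with 0.451 CPM per kb. The sorted control samples thus contained transcripts of all 10 genes, with *Tgfb2* and *Tgfb3* rather than *Tgfb1* as the main ligand transcripts. Which cells in these samples held the transcripts of each gene was not tested.

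**Figure D1:**
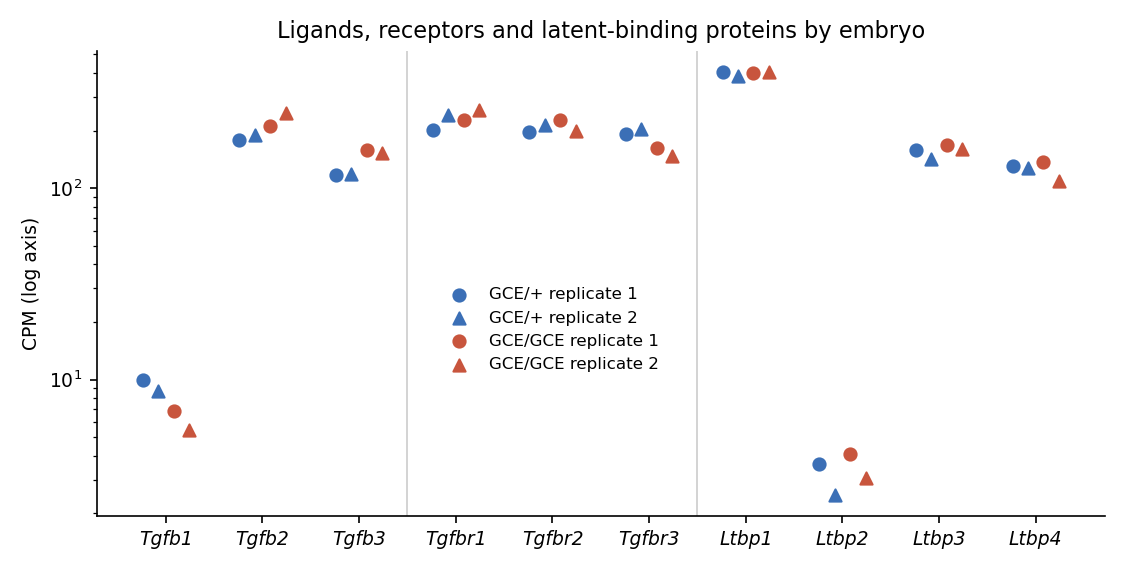
CPM (log axis) of the 10 genes in each of the 4 embryos, GCE/+ in blue and GCE/GCE in red, with circles for replicate 1 and triangles for replicate 2. Both red points of *Tgfb2* and *Tgfb3* lie above both blue points, those of *Tgfb1* and *Tgfbr3* lie below, and *Tgfb1* and *Ltbp2* are the only genes under 10 CPM.

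Between the genotypes, *Tgfb3* rose in GCE/GCE cells and was the only 1 of the 10 genes past the threshold, an adjusted p of 0.1 in edgeR's quasi-likelihood test. Of all tested genes, 1.82% passed it, 140 higher and 145 lower. An unadjusted p under 0.05 in that test was found for 4 of the 10 genes and for 10.5% of all tested genes. Of the 10 genes, 5 had GCE/GCE values that did not overlap the GCE/+ values, which is a description and was the case for 38.4% of all tested genes. These were *Tgfb2*, *Tgfb3* and *Ltbp3* on the higher side and *Tgfb1* and *Tgfbr3* on the lower side. The median log2 fold change of the 10 genes was 0.089, against 0.0033 over all genes tested. It ranged from 0.0055 (without GCE/GCE replicate 1) to 0.12 (without GCE/GCE replicate 2) on leaving out an embryo, with 0.027 and 0.019 without GCE/+ replicates 1 and 2, and was 0.0064 with the trend on transcript length corrected. DESeq2 passed 3 of the 10, *Tgfb3*, *Tgfbr3* and *Tgfb1*, where 3.25% of its genes passed. For 2 samples a genotype, the smallest p of an exact two-sided permutation test is 0.333, so that the calls rest on a spread estimated across genes.

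*Tgfb3*, one of the ligands needed for tendon progenitors, had 116.9 and 119.0 CPM in GCE/+ replicates 1 and 2 and 158 and 153 CPM in GCE/GCE replicates 1 and 2. The embryos of a genotype lay close together and the genotypes were well apart. The log2 fold change was 0.40 (SE 0.08, 95% interval 0.22 to 0.58, adjusted p = 0.066 by edgeR), or 1.32-fold. Its size hardly depended on any embryo, as leaving out each in turn gave 0.37 to 0.42. The call did depend on them. The adjusted p was 0.111 without GCE/+ replicate 1, 0.16 without GCE/GCE replicate 1 and 0.11 without GCE/GCE replicate 2, and it was 0.137 without the filter on low counts (all by edgeR). DESeq2 gave 0.0043. Of the exon bases of *Tgfb3*, 7.60% and 4.82% overlap 2 genes annotated on the opposite strand, *Gm48008* and *Gm37804*, whose reads cannot be told apart in an unstranded library.

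*Tgfb2*, the other ligand of tendon progenitors, had 178 and 189 CPM in the GCE/+ embryos, against 212 and 247 CPM in the GCE/GCE embryos. Both GCE/GCE embryos were above both GCE/+ embryos, and GCE/GCE replicate 2 was the highest of the 4. The log2 fold change was 0.32 (SE 0.10, 95% interval 0.10 to 0.54), but it did not pass the threshold (adjusted p = 0.226 by edgeR and 0.119 in DESeq2). It was 0.20 without GCE/GCE replicate 2. Without GCE/GCE replicate 1 it was 0.42 and passed (adjusted p = 0.0903 by edgeR), in a fit where 4.7% of all genes passed. In every such fit the genotype with 1 embryo left is assumed to vary like the other.

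*Tgfb1*, the ligand best known from fibrosis and immune regulation, had 9.89 and 8.68 CPM in the GCE/+ embryos, against 6.86 and 5.42 CPM in the GCE/GCE embryos. It was lower in both GCE/GCE embryos, at 0.661 of the GCE/+ level in the fit. Behind these values stood 602 and 454 counts against 398 and 332 counts. The exact 95% Poisson interval of the lowest GCE/+ sample, 7.90 to 9.52 CPM, did not reach that of the highest GCE/GCE sample, 6.20 to 7.56 CPM, and such intervals cover counting error only. The log2 fold change of -0.60 was the largest of the 10 in size (SE 0.17, 95% interval -0.98 to -0.22) and did not pass in edgeR's quasi-likelihood test (adjusted p = 0.18). DESeq2 put it just under the threshold, at 0.0961. Without GCE/GCE replicate 1 it was -0.78 and passed (adjusted p = 0.0271 by edgeR, in a fit where 4.7% of all genes passed), and without GCE/GCE replicate 2 it was -0.44 with an adjusted p of 0.661 by edgeR.

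Macrophage markers moved in the same direction as *Tgfb1*. A list of 15 macrophage genes summed to 357 and 358 CPM in the GCE/+ embryos, against 220.3 and 157 CPM in the GCE/GCE embryos. All 15 were lower in both GCE/GCE embryos, 11 of them past the threshold of edgeR's quasi-likelihood test and none at 0. Their median log2 fold change was -0.998. Over all tested genes, 1.82% passed this threshold and 38.4% had genotypes that did not overlap, both in either direction. Macrophages are a well-known source of *Tgfb1*, and the sort for GFP was meant to leave out cells that do not express the *Osr1* allele. Fewer cells of a type and less RNA per cell cannot be told apart in such samples, and the part of these cells in the *Tgfb1* values was not tested.

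Lists of cartilage and tendon genes were set beside *Tgfb3*. Of the 16 cartilage genes listed, 15 were counted and tested. The cartilage list summed to 1021 and 1502 CPM in the GCE/+ embryos, against 2131 and 2293 CPM in the GCE/GCE embryos. All 15 were higher in both GCE/GCE embryos, none was at 0, and 6 passed the threshold. The shares over all tested genes, in either direction, were 38.4% for genotypes that did not overlap and 1.82% for the threshold. A list of 10 tendon genes summed to 2445 and 2008 CPM in the GCE/+ embryos, against 2661 and 2002 CPM in the GCE/GCE embryos, with 4 genes higher and 1 lower past the threshold, none at 0, and a median log2 fold change of 0.60. Most of this sum was *Egr1*, with 1269 to 1840 CPM and a log2 fold change of 0.04, and the gene that fell was *Kera* (-0.71), both named after their values were seen. What cartilage or tendon cells contributed to the *Tgfb3* values was not tested.

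**Figure D2:**
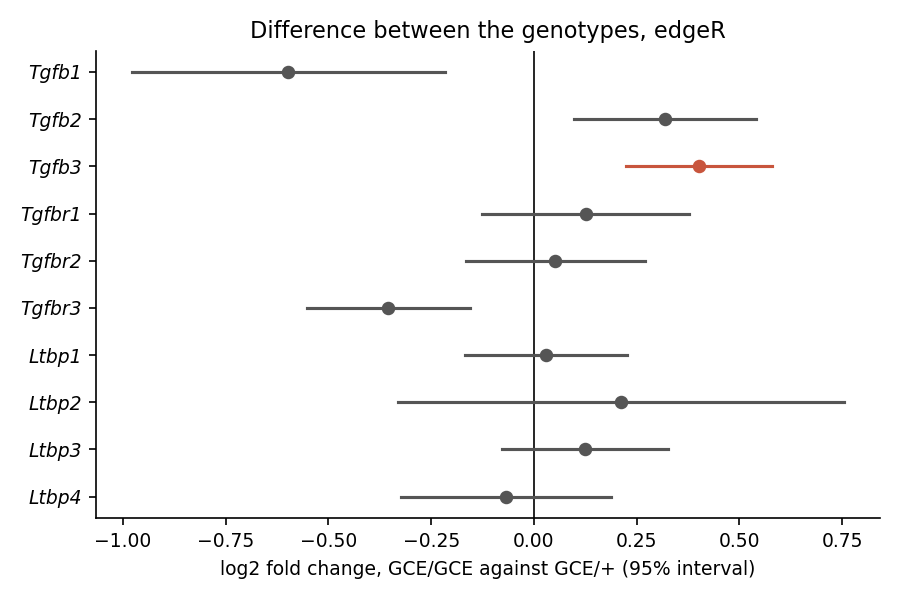
Log2 fold change of each gene in GCE/GCE against GCE/+ cells (point) with its 95% interval (line) from edgeR's quasi-likelihood fit, and in red the gene with an adjusted p under 0.1. The interval of *Tgfb3* runs from 0.22 to 0.58, those of *Tgfb1* and *Tgfbr3* lie below 0, and all 4 latent-binding proteins have intervals that include 0.

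The promoters of *Tgfb1* and *Tgfb2* are shown because they differ plainly in base composition and motifs. Neither gene passed the threshold in edgeR's quasi-likelihood test. The pair was chosen for its contrast, and a relation between promoter type and direction of change was not tested. The 250 bases before the annotated transcription start were taken from a table of RefSeq promoters (GRCm38.p6), in which 8 of the 10 genes were matched. Those of *Tgfb3* and *Tgfbr3* were not analysed here. Capitals mark every match, on either strand, to GGGCGG (the GC box bound by Sp1), TATAAA (the TATA box), TGACG (the core of the cAMP response element) and CACGTG (an E-box), and no 2 matches overlapped. *Tgfb1* lies at chr7:25686752-25687001 on the plus strand and *Tgfb2* at chr1:186705990-186706239 on the minus strand, both printed 5′ to 3′ along the gene.
Tgfb1: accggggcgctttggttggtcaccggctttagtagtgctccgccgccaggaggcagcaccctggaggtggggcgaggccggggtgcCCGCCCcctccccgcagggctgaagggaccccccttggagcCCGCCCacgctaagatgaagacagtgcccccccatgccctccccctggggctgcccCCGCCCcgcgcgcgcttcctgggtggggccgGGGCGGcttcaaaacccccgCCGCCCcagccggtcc
Tgfb2: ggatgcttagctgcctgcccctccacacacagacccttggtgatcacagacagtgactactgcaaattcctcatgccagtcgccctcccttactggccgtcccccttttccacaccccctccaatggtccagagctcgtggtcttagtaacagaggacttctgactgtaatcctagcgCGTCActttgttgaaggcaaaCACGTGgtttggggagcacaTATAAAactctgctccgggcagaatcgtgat
The *Tgfb1* stretch was 75.2% G or C and held 5 GC boxes and none of the other motifs. That of *Tgfb2* was 53.6% G or C, close to the median of 52.4% over all promoters, and had no GC box. It held 1 TATA box from 31 to 26 bases before the start, 1 E-box from 51 to 46 and 1 TGACG on the opposite strand from 72 to 68. Among 32851 promoters of the same length, 32.7% held GGGCGG, 12.4% TATAAA, 17.8% TGACG and 6.02% CACGTG. These are matches of letters and no measure of binding.

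Of the receptors, *Tgfbr1*, the type I kinase, had 202 and 242 CPM in the GCE/+ embryos, against 228 and 258 CPM in the GCE/GCE embryos. *Tgfbr2*, the type II kinase that binds ligand first, had 197 and 213 CPM in the GCE/+ embryos, against 227 and 199 CPM in the GCE/GCE embryos. For both kinases the genotypes overlapped. The 95% intervals of the log2 fold change were -0.13 to 0.38 for *Tgfbr1* and -0.17 to 0.27 for *Tgfbr2*, and the adjusted p was 0.835 and 0.95 in edgeR's quasi-likelihood test.

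*Tgfbr3*, the co-receptor betaglycan, had 192 and 205 CPM in the GCE/+ embryos, against 162 and 148 CPM in the GCE/GCE embryos. Both GCE/GCE embryos were below both GCE/+ embryos. Its log2 fold change of -0.35 (SE 0.09, 95% interval -0.55 to -0.16) put it at 0.782 of the GCE/+ level and missed the threshold in edgeR's quasi-likelihood test (adjusted p = 0.125). It passed in 4 of 13 alternative fits, with an adjusted p of 0.0354 in DESeq2 and 0.0511 once the trend on transcript length was corrected (edgeR's quasi-likelihood test). Without GCE/GCE replicate 1 it was -0.43 (adjusted p = 0.0925, where 4.7% of all genes passed), and without GCE/GCE replicate 2 it was -0.29 (adjusted p = 0.643, both by edgeR). Beside it, 11 endothelial markers summed to 146 and 116 CPM in the GCE/+ embryos, against 114.8 and 95.1 CPM in the GCE/GCE embryos. Of these, 10 had a negative log2 fold change, but only 6 were lower in both GCE/GCE embryos, 1 was higher and 4 overlapped. Over all tested genes, 38.4% had genotypes that did not overlap, in either direction. No endothelial marker passed the threshold by edgeR, which 1.82% of all tested genes passed. In DESeq2, where 3.25% of genes passed, 1 lower gene did so at 0.0852 (*Tie1*, named after its values were seen). None of the 11 markers was at 0. Their part in the *Tgfbr3* values was not tested.

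None of the 4 latent-binding proteins passed the threshold in edgeR's quasi-likelihood test or in DESeq2, and none had an unadjusted p under 0.05. *Ltbp1*, the most abundant of them, had 405 and 385 CPM in the GCE/+ embryos, against 401 and 406 CPM in the GCE/GCE embryos. Its 4 values spread over less than those of any other of the 10 genes in proportion, and its log2 fold change was 0.029 (95% interval -0.17 to 0.23). *Ltbp3*, which like LTBP1 binds the latent complex covalently, had 159 and 142 CPM in the GCE/+ embryos, against 168 and 160.5 CPM in the GCE/GCE embryos. Its genotypes were only just separate, and its log2 fold change was 0.13 (95% interval -0.08 to 0.33, adjusted p = 0.759 by edgeR).

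*Ltbp4*, which serves elastic fibre assembly as well as TGF-β storage, had 130.1 and 127 CPM in the GCE/+ embryos, against 137 and 108.5 CPM in the GCE/GCE embryos. The 2 GCE/GCE embryos enclosed both GCE/+ embryos, and the log2 fold change was -0.068 (95% interval -0.32 to 0.19). *Ltbp2*, the family member that does not bind latent TGF-β and acts in microfibrils, had 3.60 and 2.51 CPM in the GCE/+ embryos, against 4.07 and 3.04 CPM in the GCE/GCE embryos. It rested on 131 to 236 counts per sample, and 11.3% of its exon bases overlap *D030025P21Rik* on the opposite strand. Its embryos differed more within GCE/+, by 0.52 on the log2 scale, than the genotypes did (0.21, 95% interval -0.33 to 0.76), so that a difference of moderate size was not detectable here.

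**Figure D3:**
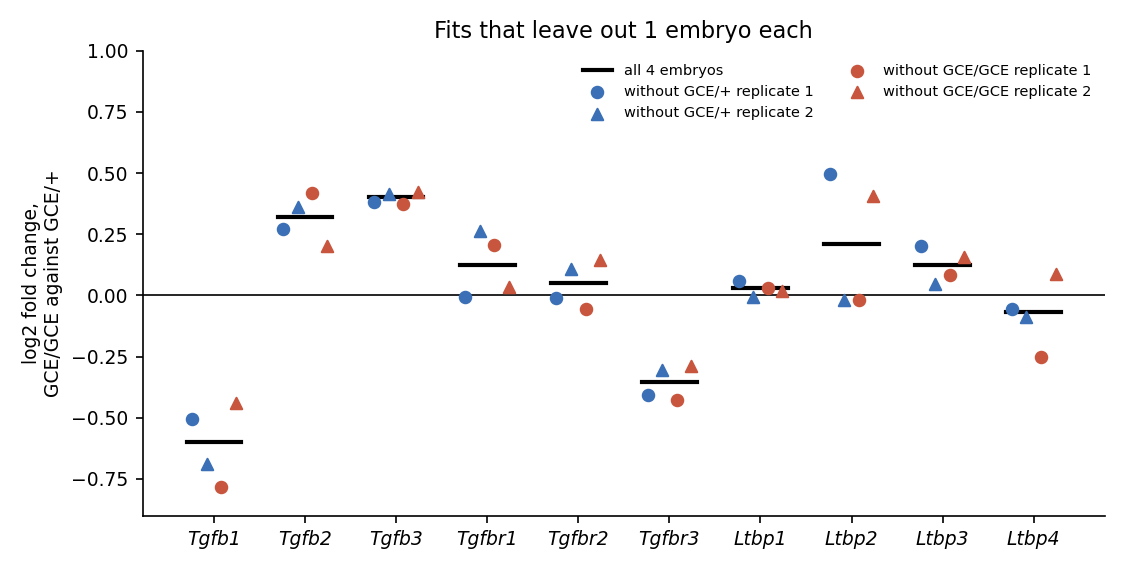
Log2 fold change of each gene with all 4 embryos (black bar) and with 1 embryo left out, coloured by the genotype and shaped by the replicate of that embryo. The 4 points of *Tgfb3* lie between 0.37 and 0.42, those of *Tgfb1* between -0.78 and -0.44, and those of *Ltbp2* between -0.02 and 0.50.

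Shares within each family do not depend on the scaling between samples. They were taken from CPM per kb of exon. *Tgfb1* made up 6.19% and 5.29% of the ligand transcripts in the GCE/+ embryos, against 3.48% and 2.62% in the GCE/GCE embryos. The remainder was divided nearly evenly between *Tgfb2*, with 44.9% to 49.8% over the 4 embryos, and *Tgfb3*, with 46.6% to 51.6%. Per kb, *Tgfb3* exceeded *Tgfb1* 7.60 and 8.81 times in the GCE/+ embryos, against 14.8 and 18.2 times in the GCE/GCE embryos. The 2 abundant ligands were near equal per kb, with 0.956 to 1.15 *Tgfb3* per *Tgfb2* in all 4 embryos. By counts alone, without transcript length, *Tgfb2* made up 56.2% to 60.8% of the ligands and *Tgfb1* 1.34% to 3.24%. Summed over the 3 ligands, the level was 73.4 and 75.5 CPM per kb in GCE/+ cells and 90.6 and 95.3 CPM per kb in GCE/GCE cells.

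Among the receptors, *Tgfbr3* made up 36.2% and 34.6% in the GCE/+ embryos, against 29.7% and 27.4% in the GCE/GCE embryos. Per *Tgfbr2* there were 1.31 and 1.29 *Tgfbr3* in the GCE/+ embryos, against 0.963 and 1.00 in the GCE/GCE embryos. Among the latent-binding proteins *Ltbp1* made up 50.8% to 54.1%, *Ltbp3* 26.0% to 28.5%, *Ltbp4* 17.0% to 20.6% and *Ltbp2* at most 0.525%. The summed ligands amounted to 0.655 and 0.718 of the summed latent-binding proteins in the GCE/+ embryos, against 0.793 and 0.877 in the GCE/GCE embryos. The ligand to latent-binding ratio and the *Tgfbr3* to *Tgfbr2* ratio did not overlap between the genotypes, and no test was made on them. Among single genes, the genotypes did not overlap for 38.4% of all tested genes.

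**Figure D4:**
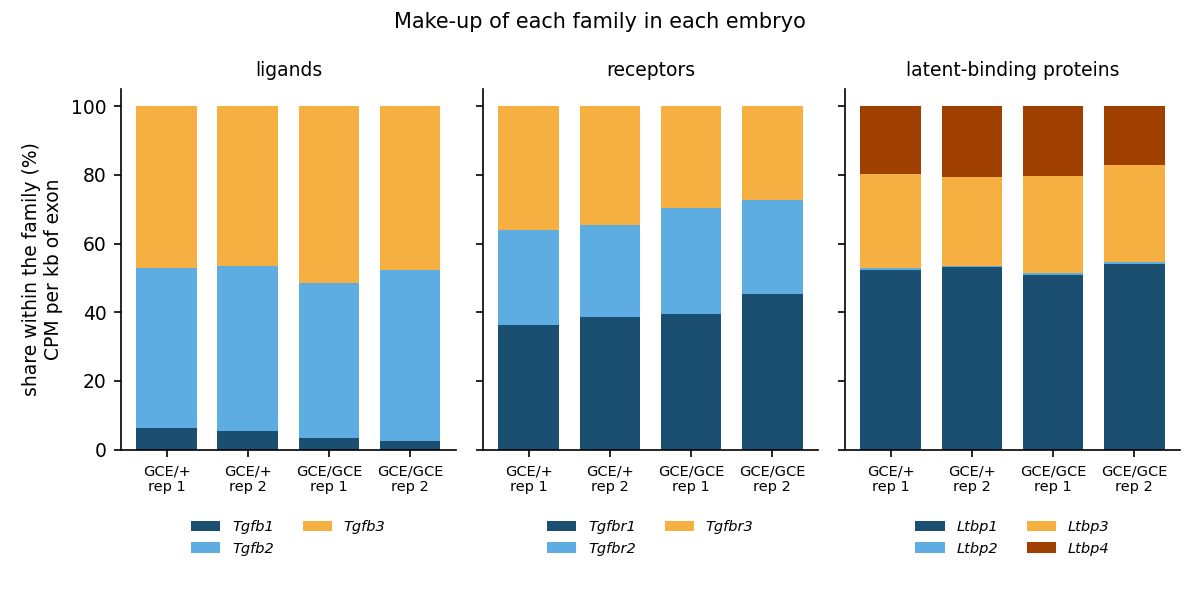
Share (%) of each gene within its family in each embryo, from CPM per kb of exon, as stacked bars that reach 100%. *Tgfb1* takes the thin lowest part of the ligand bars, 5.29% or more in GCE/+ and 3.48% or less in GCE/GCE cells, and *Tgfbr3* takes at least 34.6% of the receptor bars in GCE/+ and at most 29.7% in GCE/GCE cells.

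Of the 14 signal transducers and feedback genes of the pathway, none passed the threshold in edgeR's quasi-likelihood test or in DESeq2, and their median log2 fold change was 0.030. The smallest unadjusted p were those of 3 genes. *Smad3*, which carries the signal to the nucleus, had 136 and 154 CPM in the GCE/+ embryos, against 174 and 172 CPM in the GCE/GCE embryos (log2 fold change 0.26, SE 0.09, adjusted p = 0.304 by edgeR). *Skil*, an inhibitor of SMADs that the pathway itself induces, had 0.23 (SE 0.10), and *Smurf2*, a ubiquitin ligase for SMADs and receptors, had 0.13 (SE 0.08). *Smad2*, *Smad4* and *Smad7*, chosen after their values were seen, were at -0.051, 0.016 and -0.11. A count of 0 called genes stood beside 2 with an unadjusted p under 0.05, *Smad3* and *Skil*, where 10.5% of all tested genes had one.

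The 18 genes for anchoring, processing and activating the latent complex, among them *Fbn1*, *Fn1*, *Furin* and integrin chains, likewise had none past the threshold in edgeR's quasi-likelihood test, with 3 at an unadjusted p under 0.05 (10.5% of all tested genes), and their median was -0.026. *Lrrc33* (now *Nrros*), which anchors latent TGF-β1 on myeloid cells, had 10.6 and 9.47 CPM in the GCE/+ embryos, against 6.89 and 4.08 CPM in the GCE/GCE embryos. The log2 fold change came to -0.87 (SE 0.23, adjusted p = 0.153 by edgeR and 0.0163 in DESeq2). *Lrrc33* was the only DESeq2 call of this list, where 3.25% of all DESeq2 genes passed. The macrophage sums given above moved with it, and their part in it was not tested. *Adamtsl2*, whose product binds LTBP1, had 14.4 and 13.0 CPM in the GCE/+ embryos, against 17.9 and 19.0 CPM in the GCE/GCE embryos (log2 fold change 0.43, SE 0.12, adjusted p = 0.169). *Itgb3*, the chain of an activating integrin, had -0.46 (SE 0.17).

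Of 12 co-receptors and extracellular ligand binders, 1 rose and none fell past the threshold in edgeR's quasi-likelihood test, which 1.82% of all tested genes passed. The median log2 fold change of the list was 0.026. *Fmod* (fibromodulin), a small proteoglycan of tendon that binds TGF-β, had 52.6 and 43.6 CPM in the GCE/+ embryos, against 88.5 and 77.7 CPM in the GCE/GCE embryos, or 0.79 as log2 fold change (SE 0.11, adjusted p = 0.03). DESeq2 passed *Fmod* and 2 lower genes, *Dcn* and *Acvrl1*. *Dcn* (decorin), also a proteoglycan that binds TGF-β, had 517 and 375 CPM in the GCE/+ embryos, against 316 and 242 CPM in the GCE/GCE embryos (log2 fold change -0.68, SE 0.17, adjusted p = 0.131 by edgeR and 0.0011 in DESeq2). *Acvrl1*, an endothelial type I receptor, had 11.1 and 8.03 CPM in the GCE/+ embryos, against 6.70 and 5.60 CPM in the GCE/GCE embryos, or -0.64 as log2 fold change (SE 0.19, adjusted p = 0.21 by edgeR and 0.0948 in DESeq2). The endothelial markers given above were measured beside it, and their part in it was not tested.

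Of 16 genes widely used as a readout of TGF-β signalling, 15 were tested, since *Cdkn2b* was at most 0.155 CPM. In edgeR's quasi-likelihood test 1 rose and none fell, and the median of the list was 0.11. *Tnc* (tenascin-C), a matrix protein of tendon and perichondrium, had 340 and 351 CPM in the GCE/+ embryos, against 479 and 458 CPM in the GCE/GCE embryos, or 0.44 as log2 fold change (SE 0.09, adjusted p = 0.068). DESeq2 also passed *Tgfbi* and *Scx*, at 0.0046 and 0.0193, where 3.25% of its genes passed. *Tgfbi*, a matrix adaptor protein named for its induction by TGF-β, had 258 and 289 CPM in the GCE/+ embryos, against 401 and 349 CPM in the GCE/GCE embryos (log2 fold change 0.45, SE 0.10, adjusted p = 0.106 by edgeR). *Scx*, the transcription factor of tendon progenitors, had 9.99 and 7.10 CPM in the GCE/+ embryos, against 13.6 and 13.8 CPM in the GCE/GCE embryos (log2 fold change 0.68, SE 0.17). *Fmod* and *Scx* also stand in the tendon list given above, and *Dcn* in the fibroblast list. *Ctgf*, a classical target chosen after its values were seen, had a log2 fold change of 0.063 (95% interval -0.21 to 0.33). Over the 59 tested genes of the 4 lists, 14 had an unadjusted p under 0.05 in edgeR's quasi-likelihood test, against 10.5% of all tested genes. Where 1.82% of all tested genes passed the threshold, the number of these 59 that passed was 2. Leaving out an embryo changed that number to 4 (GCE/+ replicate 1), 10 (GCE/+ replicate 2), 8 (GCE/GCE replicate 1) and 8 (GCE/GCE replicate 2). In these fits 1.25%, 6.03%, 4.7% and 2.57% of all genes passed.

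**Figure D5:**
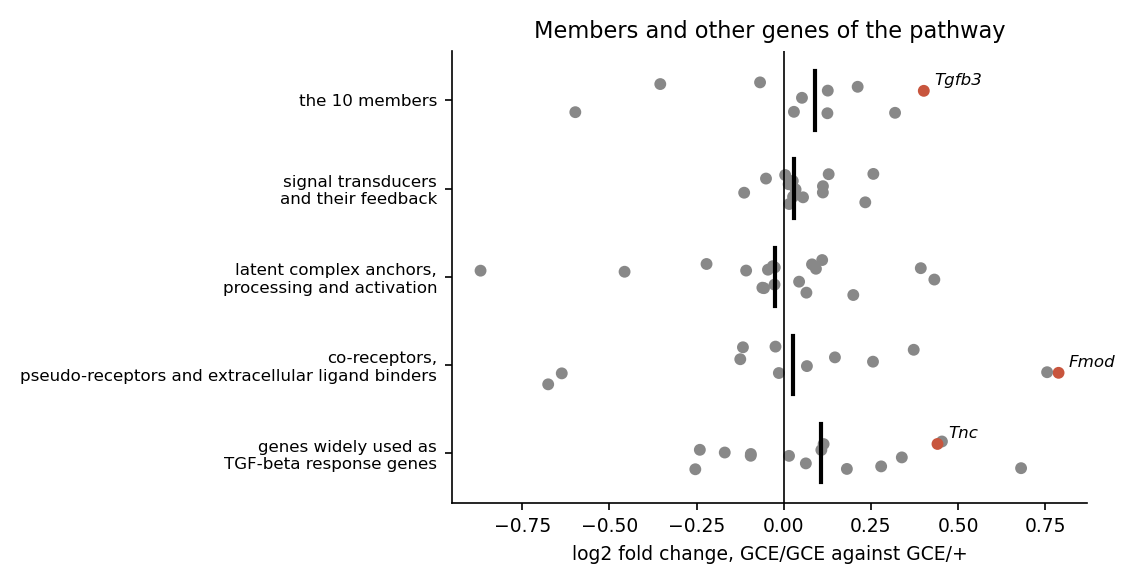
Log2 fold changes (GCE/GCE against GCE/+, edgeR's quasi-likelihood fit) of the 10 genes and of the tested genes in 4 lists of other TGF-β pathway genes, 1 point a gene, with a black bar at each median and red for an adjusted p under 0.1. Red points are *Tgfb3*, *Fmod* and *Tnc*, and the medians of the 4 lists lie between -0.026 and 0.11.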

How the data were processed

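Sorted GFP+ cells of 4 E13.5 limb samples, 1 embryo each, were sequenced by the authors as 50-bp paired ends from an unstranded TruSeq library, aligned with TopHat2 to mm9 and counted with HTSeq (intersection-strict). The deposited files hold raw counts per gene symbol, 1 file per sample, and the strand setting of the counting was not given in the sources used here. Embryos were grouped by the labelled genotype. Genes were filtered with filterByExpr, normalized by TMM and tested by edgeR 4.0.16 (glmQLFit and glmQLFTest, no covariates) with Benjamini-Hochberg adjustment over all tested genes and a threshold of 0.1. DESeq2 1.42.0, other scalings and filters, a replicate block, transcript length offsets and leaving out each embryo were alternatives. Intervals are 95%. Exon lengths and overlaps came from GENCODE vM21 (GRCm38), later than the authors' gene model, and 98.0% of symbols matched. Fits were tested on simulated data under R 4.3.3.

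Named were the 10 genes, *Osr1* as a check of the labels, and from each pathway list the genes past the threshold or else the 3 with the smallest unadjusted p. *Dcn*, *Acvrl1*, *Tgfbi* and *Scx* were named beyond this rule as DESeq2 calls, after their values were seen. *Aspn* was named beyond it for its small unadjusted p in edgeR's quasi-likelihood test, also after its values were seen. Members and lists were chosen with earlier results of these data known. Listed marker sets also included 11 myogenic genes (summed level 185 to 238 CPM) and 10 erythroid genes (158 to 463 CPM, *Hba-a1* at 0), with none past the threshold in edgeR's quasi-likelihood test.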

Additional observations from a re-analysis of the deposited data

How the results depend on the processing

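The number of the 10 genes past the threshold was 1 and became 3 with DESeq2, 0 without the filter on low counts, 2 with transcript length offsets, 2 with these offsets and the replicate block, 0 at an adjusted p of 0.05, and 0 to 3 on leaving out an embryo. The 2 calls among the other pathway genes became 7 with DESeq2, 1 without the filter, 4 with length offsets, 5 with offsets and block, 1 at 0.05, and 4 to 10 on leaving out an embryo. The median log2 fold change of the 10 genes, 0.089, became 0.0064 with length offsets, 0.0072 with offsets and block, and 0.0055 to 0.12 on leaving out an embryo. Over all genes, 285 calls became 502 with DESeq2, 127 without the filter, and 199 to 961 on leaving out an embryo. The causes were not tested.

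The sign turned for *Tgfbr2* (-0.052 with length offsets, -0.055 with offsets and block) and *Ltbp1* (-0.052 and -0.049). On leaving out an embryo, the log2 fold change ran from -0.0048 to 0.26 for *Tgfbr1*, from -0.053 to 0.145 for *Tgfbr2*, from -0.0068 to 0.059 for *Ltbp1*, from -0.020 to 0.50 for *Ltbp2* and from -0.25 to 0.088 for *Ltbp4*. *Tgfb1*, *Tgfb2*, *Tgfb3*, *Tgfbr3* and *Ltbp3* kept their sign in 13 of 13 alternatives, and *Tgfb3* was past the threshold in 8, with an adjusted p of 0.0043 to 0.16. DESeq2 size factors, upper quartile scaling, a minimum of 10 counts and edgeR's older quasi-likelihood fit, the last chosen after seeing the data, left *Tgfb3* as the only call.

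The replicate numbers only name embryos, and the deviations of same-numbered samples hardly correlated (0.02 over 13469 genes), so they were not taken as pairs. With the replicate block 0 of the 10 genes passed, and *Tgfb3* had an adjusted p of 0.109 in edgeR's quasi-likelihood test. With 2 embryos a genotype, the intervals given with each gene set what could be detected, and for *Ltbp2* and *Tgfb1* low counts add to them.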
